A study of Mus musculus with 4 samples.

Results

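The 5 genes described here encode the carnitine palmitoyltransferases and carnitine acetyltransferase, namely *Cpt1a* (Entrez gene 12894), *Cpt1b* (12895), *Cpt1c* (78070), *Cpt2* (12896) and *Crat* (12908). They were taken by symbol from a table of 19030 genes, and each symbol matched 1 row. The table holds RNA sequencing of the subcutaneous inguinal white fat (ingWAT) of C57BL/6 mice aged 3 months and housed at 4°C. The Ctrl mice carry floxed *Oct3* (*Slc22a3*, a transporter that clears norepinephrine) and no Cre, and the cKO mice add an Adiponectin-Cre transgene that deletes the floxed part in adipocytes. Each genotype had 2 libraries, all from cold-housed animals, so that no library shows the genes at room temperature. The methods describe male mice acclimated stepwise to the cold over several weeks. The other cells of the depot keep an intact *Oct3*, and the study's text does not say how many mice went into a library.

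Long-chain fatty acids cross the mitochondrial membranes as carnitine esters. CPT1 on the outer membrane moves the acyl group from CoA to carnitine and is inhibited by malonyl-CoA, the carnitine-acylcarnitine translocase encoded by *Slc25a20* carries the ester inward, and CPT2 on the inner membrane returns the acyl group to CoA for β-oxidation. CPT1 exists as a liver isoform (CPT1A), a muscle isoform (CPT1B) that is also the main form of brown fat, and a brain isoform (CPT1C) that has been placed in the endoplasmic reticulum of neurons and has little acyltransferase activity. CRAT acts on short chains and converts acetyl-CoA to acetylcarnitine. The comparison of Ctrl with cKO therefore asks which isoform of the malonyl-CoA-sensitive step was present in cold-exposed ingWAT, and whether the isoforms and the later steps differed together between the genotypes.

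Abundance is given as FPKM, in which fragment numbers are divided by transcript length and by library size, so that levels of different genes can be compared per length. Fold changes are cKO minus Ctrl on the log2(FPKM + 1) scale, and a gene is said to have risen or fallen where limma gave a Benjamini-Hochberg adjusted p under 0.05 among the 12658 genes with a mean of at least 1 FPKM. At this threshold 25.8% of all tested genes were called, 12% higher and 13.8% lower in cKO, and in 66.5% of them the libraries of the genotypes did not overlap. The 3269 calls became 787 without Ctrl replicate 1, 1478 without Ctrl replicate 2 and 2152 without cKO replicate 1. In bulk tissue fewer cells of a type and less RNA per cell cannot be told apart, and both Ctrl libraries held skeletal muscle transcripts that were nearly absent from cKO, with values given beside the isoforms. Steps between low FPKM values placed the depth at 17300000 to 18300000 reads per library. *Slc22a3* itself read 16.95 and 17.68 FPKM in Ctrl and 9.07 and 9.5 FPKM in cKO, so that the cKO values were the lower pair, with a log2 fold change of -0.83 (SE 0.066; limma, adjusted p = 0.000439).

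The 3 CPT1 isoforms are separate genes that can be told apart by reads of 50 bases. *Cpt1a* lies on chromosome 19 (GRCm38, 3322334 to 3385733, plus strand), *Cpt1b* on chromosome 15 (89416405 to 89425863, minus strand) and *Cpt1c* on chromosome 7 (44959372 to 44974851, minus strand), and the listed transcript of each has 19 exons. Aligned codon by codon, the coding sequence of *Cpt1a* shared 65.5% of its bases with *Cpt1b* and 59.4% with *Cpt1c*. The 60-base coding stretch in which the 3 are most alike is shown because it is where a read would be hardest to assign. It covers codons 223 to 242 of *Cpt1a* and *Cpt1c* and codons 225 to 244 of *Cpt1b*, counted from the start codon, and it joins the end of exon 6 to the start of exon 7 in every isoform (chr19:3362196-3364510, chr15:89423537-89423682 and chr7:44967100-44970431, intron included). Capitals mark bases that differ from *Cpt1a*.
Cpt1a: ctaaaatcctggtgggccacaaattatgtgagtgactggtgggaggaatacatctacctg
Cpt1b: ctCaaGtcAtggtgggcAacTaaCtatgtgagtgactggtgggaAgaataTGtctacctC
Cpt1c: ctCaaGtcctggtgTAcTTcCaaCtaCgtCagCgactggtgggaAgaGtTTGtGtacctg
In this stretch 41 of the 60 bases are the same in all 3 isoforms, while 10 differ between *Cpt1b* and *Cpt1a* and 17 between *Cpt1c* and *Cpt1a*. Over whole transcripts the longest run shared by *Cpt1a* and *Cpt1b* was 20 bases, and that shared by *Cpt1b* and *Cpt1c* was 23 bases. No 50-base stretch of any of the 5 members occurred unaltered in another of them.

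For the liver isoform no difference between the genotypes passed the test. *Cpt1a* read 13.38 and 13.08 FPKM in the Ctrl libraries and 12.59 and 14.06 FPKM in the cKO libraries. Both Ctrl values fell between the lowest and the highest cKO value, so the groups overlapped. The log2 fold change was 0.01, with a 95% interval from -0.17 to 0.18 (limma, adjusted p = 0.95). The study's own real-time PCR of cold-exposed ingWAT reported *Cpt1a* as significantly higher in cKO, unlike these FPKM values. The measures are unlike in normalization (*Tbp* for the PCR, library size for FPKM) and in the number of samples. The reason for the unlike result was not tested. Between 932 and 1053 estimated reads stood behind each value, and 60.2% of the tested genes had a lower mean FPKM.

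The muscle isoform was the member that rose most. *Cpt1b* read 38.79 and 53.01 FPKM in Ctrl, and 131.45 and 115.1 FPKM in cKO. Both cKO libraries lay above both Ctrl libraries, and the gap between the genotypes was wider than the gap between the Ctrl libraries, which was itself the widest among the 5 members relative to the mean. Mean abundance (± SD, n = 2 each) was 45.9 ± 10.1 FPKM for Ctrl and 123.3 ± 11.6 FPKM for cKO, a ratio of 2.69. The log2 fold change was 1.42 (SE 0.138, 95% interval 1.09 to 1.75; limma, adjusted p = 0.000845), the 35th highest of the 12658 genes tested. It stayed past the threshold in every one of the 11 other settings tried, with the fold change between 1.2 and 1.64.

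A read-through transcript complicates the count of *Cpt1b*. The gene *Chkb*, which encodes choline kinase beta, ends 496 bases from *Cpt1b* on the same strand, and a read-through gene (ChkbCpt1b, Entrez gene 100134861) spans both. Its transcript contains 93.0% of the 50-base reads that *Cpt1b* can give, so that the division of reads between them rests on the estimation and is uncertain. The read-through was listed at 3.17 and 2.53 FPKM in Ctrl and at 10.13 and 3.04 FPKM in cKO, where 1 cKO library stood apart and the other lay within the Ctrl values (log2 fold change 0.81; limma, adjusted p = 0.189). Summed with *Cpt1b* it gave 41.96 and 55.54 FPKM in Ctrl and 141.6 and 118.1 FPKM in cKO. The sum thus kept the separation of the genotypes, with a ratio of 2.66, and the read-through made up between 2.57% and 7.55% of it in every library. *Chkb*, from which *Cpt1b* shares no 50-base read, read 29.2 and 31.4 FPKM in Ctrl and 42.03 and 45.87 FPKM in cKO, a rise of 0.52 on the log2 scale (limma, adjusted p = 0.00233). Of the 50-base reads that *Chkb* can give, 77.7% also occur in the read-through, so its level too rests on an uncertain division of reads.

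The brain isoform was barely detected. *Cpt1c* read 1.79 and 1.47 FPKM in Ctrl and 1.03 and 1.11 FPKM in cKO. The cKO values were the lower pair, without overlap between the genotypes, as for 66.5% of all genes. The log2 fold change was -0.34 (95% interval -0.63 to -0.06), which did not pass the threshold (unadjusted p = 0.0257 and adjusted p = 0.081 in limma over all genes). The values rest on about 90 and 73 reads in Ctrl and 49 and 54 in cKO, and the exact 95% Poisson intervals of the lower Ctrl library (57 to 92 reads) and the higher cKO library (41 to 70 reads) overlap. These intervals cover counting error only. An antisense gene, 6530437J22Rik, overlaps 13.1% of the exonic bases of *Cpt1c*, and since the library preparation described for the samples does not mark strand, reads of the 2 cannot be told apart there.

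**Figure D1:**
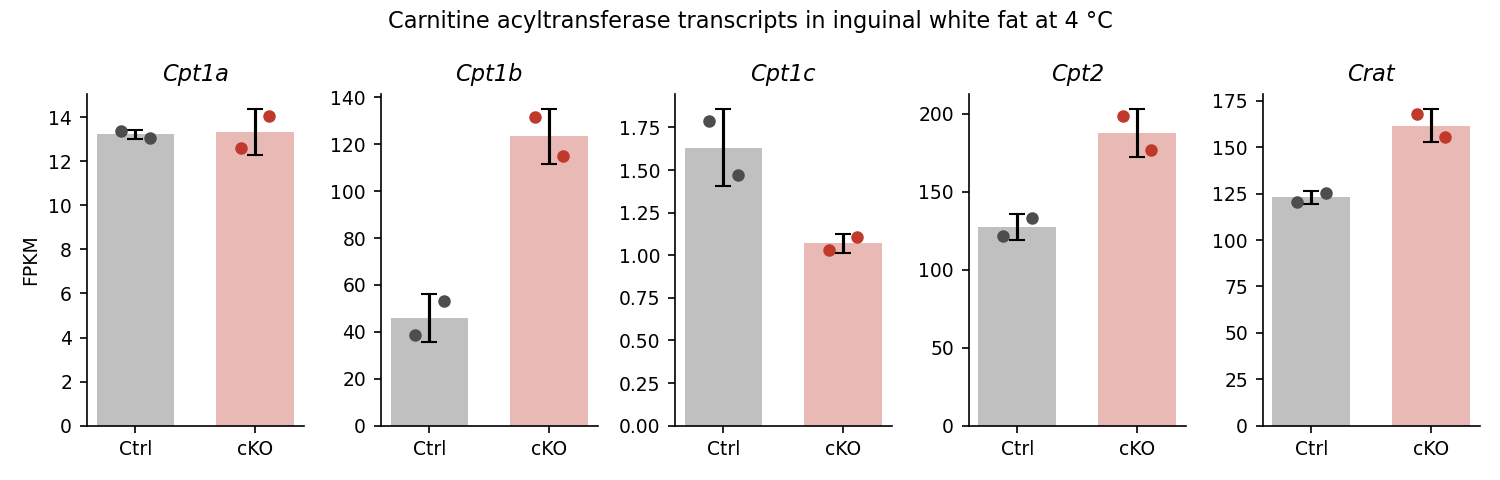
FPKM of the 5 carnitine acyltransferase genes in Ctrl and cKO ingWAT, with 1 panel and its own linear axis for each gene. Points are libraries, bars are means and error bars are SD (n = 2 each): the cKO points stand above the Ctrl points for *Cpt1b*, *Cpt2* and *Crat*, on either side of them for *Cpt1a*, and below them for *Cpt1c*.

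The inner-membrane enzyme rose less than *Cpt1b*. *Cpt2*, on chromosome 4 (GRCm38, 107903981 to 107923610, minus strand, 5 exons), read 121.51 and 133.56 FPKM in Ctrl and 198.57 and 177.1 FPKM in cKO. The cKO libraries were both above the Ctrl libraries, and the genotypes differed by more than the libraries within either. The log2 fold change was 0.55 (SE 0.0782, 95% interval 0.37 to 0.74; limma, adjusted p = 0.00298). Without Ctrl replicate 1 it was 0.49 and no longer passed the threshold (limma, adjusted p = 0.060, where the 11 other settings ranged from 0.000435 to 0.060). In that setting the remaining Ctrl library is assumed to vary as the cKO libraries do.

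The short-chain enzyme rose least of the 3 that were called. *Crat*, on chromosome 2 (GRCm38, 30400471 to 30415813, minus strand, 14 exons), read 120.58 and 125.44 FPKM in Ctrl and 167.87 and 155.33 FPKM in cKO. The Ctrl libraries were close to each other and both below the cKO libraries. The log2 fold change was 0.39 (SE 0.0631, 95% interval 0.24 to 0.54; limma, adjusted p = 0.00511). Without Ctrl replicate 1 it was 0.36 and missed the threshold (limma, adjusted p = 0.0773, with a range from 0.00134 to 0.0773 over the 11 other settings). *Dolpp1* lies in the same interval on the other strand but shares none of the 3833 exonic bases of the *Crat* transcript.

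Of the 5 members, all of which passed the filter on low values, 3 rose and 0 fell, against 12% and 13.8% of all genes tested. In 4 of the 5 the libraries of the genotypes did not overlap, against 66.5% of all genes. In Ctrl the order of the levels from the highest was *Cpt2*, *Crat*, *Cpt1b*, *Cpt1a* and *Cpt1c*, and it was the same in cKO. *Cpt2* and *Crat* did not differ beyond their spread in Ctrl, where their values overlapped. In cKO that pair was separated, and every other pair of neighbors was separated in both genotypes. The gap between *Cpt1b* and the next gene above it narrowed, as *Cpt1b* stood at 45.9 FPKM beside 123.0 FPKM for *Crat* in Ctrl and at 123.3 beside 161.6 FPKM in cKO.

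The make-up of the summed CPT1 transcripts differed accordingly. *Cpt1b* made up 71.9% and 78.5% of the summed FPKM of the 3 isoforms in the Ctrl libraries, and 90.6% and 88.4% in the cKO libraries. It was thus the main isoform in all 4 libraries, and its share was higher in both cKO libraries than in either Ctrl library. The mean share (± SD, n = 2 each) was 75.2% ± 4.65 for Ctrl and 89.5% ± 1.6 for cKO, a difference of 14.3 percentage points (two-sided exact permutation test, p = 0.333, the smallest that 2 against 2 libraries can give). *Cpt1a* made up 22.1% of the sum in Ctrl and 9.74% in cKO on average, and *Cpt1c* 2.75% and 0.781%. The sum itself read 53.96 and 67.56 FPKM in Ctrl and 145.1 and 130.3 FPKM in cKO, so that the lower share of *Cpt1a* went with a larger total and not with a lower level of *Cpt1a*. These shares are parts of 1 sum and do not vary independently.

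**Figure D2:**
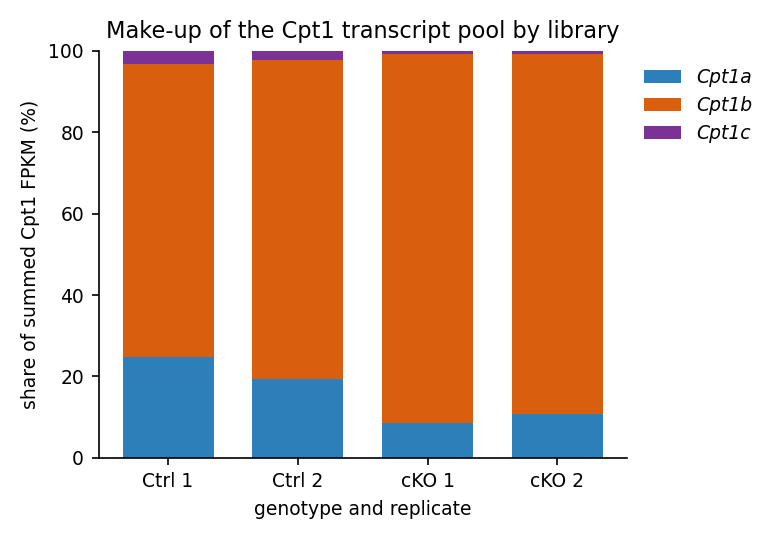
Share (%) of *Cpt1a*, *Cpt1b* and *Cpt1c* in the summed FPKM of the 3 isoforms, with 1 stacked bar per library on a linear axis from 0 to 100. *Cpt1b* takes between 71.9% and 90.6% of each bar, with the higher values in the cKO libraries.

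The unequal change of the isoforms was described by refitting all genes relative to *Cpt1a* in the same library. *Cpt1b* rose by 1.41 more than *Cpt1a* on the log2 scale (SE 0.163, 95% interval 1.04 to 1.78; limma, adjusted p = 0.000739), in a fit that called 19.8% of genes. Relative to *Cpt1a*, *Cpt2* rose by 0.55 (limma, adjusted p = 0.0138) and *Crat* by 0.38 (limma, adjusted p = 0.0376). The difference between *Cpt1c* and *Cpt1a* was -0.35 (95% interval -0.65 to -0.05) and did not pass the threshold (limma, adjusted p = 0.1). Every value of this fit carries the error of *Cpt1a* itself, so the rows are not independent of each other. The fit pools the spread over rows as if they were, so its p-values and intervals were not read as tests. With a replicate block the adjusted p of *Cpt1b* against *Cpt1a* became 1.43e-30 in limma, from the same libraries. As ratios of FPKM, *Cpt1b* over *Cpt1a* was 2.90 and 4.05 in Ctrl and 10.4 and 8.19 in cKO.

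Set beside the enzyme at the other end of the shuttle, *Cpt1b* was also higher in cKO. The ratio of *Cpt1b* to *Cpt2* was 0.319 and 0.397 in Ctrl and 0.662 and 0.650 in cKO, and *Cpt2* over the summed CPT1 isoforms went from 2.25 and 1.98 to 1.37 and 1.36. The change of *Cpt2* was 0.87 smaller than that of *Cpt1b* on the log2 scale (95% interval -1.50 to -0.23), and that of *Crat* 1.03 smaller (95% interval -1.67 to -0.39). The fit relative to *Cpt1b* called 98.4% of all genes, and each of its rows carries the error of *Cpt1b*. Neither its calls nor these intervals were therefore read as tests. *Crat* over *Cpt2* read 0.992 and 0.939 in Ctrl and 0.845 and 0.877 in cKO, without overlap (two-sided exact permutation test, p = 0.333, the smallest possible).

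The other genes of carnitine transport and acyl-CoA supply moved in both directions. Of 10 genes listed as partners of the shuttle, 9 could be tested, 4 rose and 2 fell, with a median log2 fold change of 0.16 beside -0.01 over all genes. Over all genes tested 12% rose and 13.8% fell, shares that stand beside the list counts below as well. *Slc25a20*, the translocase between CPT1 and CPT2, read 122.57 and 142.12 FPKM in Ctrl and 232.12 and 212.2 FPKM in cKO (log2 fold change 0.75; limma, adjusted p = 0.00143). Both of its cKO values lay above its Ctrl values, and *Cpt2* stood at 0.991 and 0.940 times its level in Ctrl and at 0.855 and 0.835 times in cKO. *Acsl5*, which activates fatty acids to acyl-CoA, had the largest rise of this list, from 47.4 and 57.38 FPKM to 163.15 and 135.01 FPKM (1.49; limma, adjusted p = 0.0004). The carnitine importer *Slc22a5* rose by 0.24 (limma, adjusted p = 0.0325), while *Slc22a4*, a related transporter of ergothioneine and carnitine, fell by 0.65 (limma, adjusted p = 0.00179). *Crot*, the peroxisomal carnitine octanoyltransferase, averaged 22.2 FPKM in Ctrl and 22.9 FPKM in cKO and was not called (limma, adjusted p = 0.65). Without any 1 of the 4 libraries the number that rose was 2.

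Genes that set the malonyl-CoA brake on CPT1 were mixed as well. Of 10 tested, 3 rose and 1 fell, with a median log2 fold change of 0.09. *Acacb*, the acetyl-CoA carboxylase placed at the mitochondrion, read 113.39 and 120.44 FPKM in Ctrl and 175.22 and 157.57 FPKM in cKO (log2 fold change 0.50; limma, adjusted p = 0.00297). *Mlycd*, whose product breaks malonyl-CoA down, read 37.67 and 39.45 FPKM in Ctrl and 60.32 and 55.68 FPKM in cKO (0.58; limma, adjusted p = 0.00131). Genes that make and that remove malonyl-CoA thus rose in the same libraries. *Acaca*, the cytosolic carboxylase of fatty acid synthesis, had a fold change of 0.11 and was not called (limma, adjusted p = 0.294). *Prkab2*, a subunit of the AMP-activated kinase that phosphorylates both carboxylases, fell by 0.48 (limma, adjusted p = 0.00607). The other β subunit of the same kinase, *Prkab1*, named here after its values were seen, rose by 0.47 (limma, adjusted p = 0.00658).

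The enzymes that receive the acyl-CoA from CPT2 rose nearly throughout. Of 15 β-oxidation genes 13 rose and 0 fell, with a median log2 fold change of 0.48. *Acadvl*, the very long-chain acyl-CoA dehydrogenase of the inner membrane, rose most, from 288.79 and 350.62 FPKM in Ctrl to 681.45 and 596.13 FPKM in cKO (1.0; limma, adjusted p = 0.00125). The number that rose was 6 without Ctrl replicate 1. The fold change of *Cpt1b* (1.42) was above that of each of the 15, that of *Cpt2* (0.55) was near their median, and that of *Crat* (0.39) was below it.

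The members were set beside mitochondrial genes of their own compartments. Of 10 outer membrane proteins 5 rose and 0 fell (median log2 fold change 0.19), and *Samm50*, of the sorting and assembly machinery, rose most (0.43; limma, adjusted p = 0.00396). Of 10 matrix and inner membrane reference genes 8 rose and 0 fell (median 0.32), and the protease gene *Lonp1* rose most (0.49; limma, adjusted p = 0.00283). The outer membrane count was 0 without Ctrl replicate 1, 1 without Ctrl replicate 2 and 2 without cKO replicate 1. The matrix count was 0 without Ctrl replicate 1 and 5 without Ctrl replicate 2 or without cKO replicate 1. *Crat* over *Cs*, the citrate synthase gene, read 0.350 and 0.329 in Ctrl and 0.331 and 0.325 in cKO, so that these ratios overlapped. *Cpt2* over *Cs* read 0.352 and 0.350 in Ctrl and 0.392 and 0.370 in cKO.

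Among receptors and coactivators that act on oxidation genes, 5 of 11 tested rose and 3 fell, and their median log2 fold change was just below 0 (-0.000318). *Ppara*, the fatty acid receptor of oxidative tissues, rose most on the log2(FPKM + 1) scale. It went from 7.04 and 9.6 FPKM in Ctrl to 19.35 and 16.81 FPKM in cKO (1.04; limma, adjusted p = 0.00206). That scale understates the changes of lower genes in this list, among them *Ppargc1a*. *Ppargc1a*, a coactivator of mitochondrial genes, rose from 1.97 and 2.16 FPKM to 4.56 and 4.35 FPKM (0.83; limma, adjusted p = 0.00133). *Twist1*, which is known to restrain that coactivator in brown fat, fell by 0.62 (limma, adjusted p = 0.00396). The number that rose was 3 without Ctrl replicate 1 and 3 without cKO replicate 1. Over the 6 lists 38 genes rose and 6 fell of 65 tested, beside 12% higher and 13.8% lower over all genes tested. The number called over all genes was smaller with any library left out, and so was the number that rose in these lists. Without Ctrl replicate 2 the number that rose was 24.

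**Figure D3:**
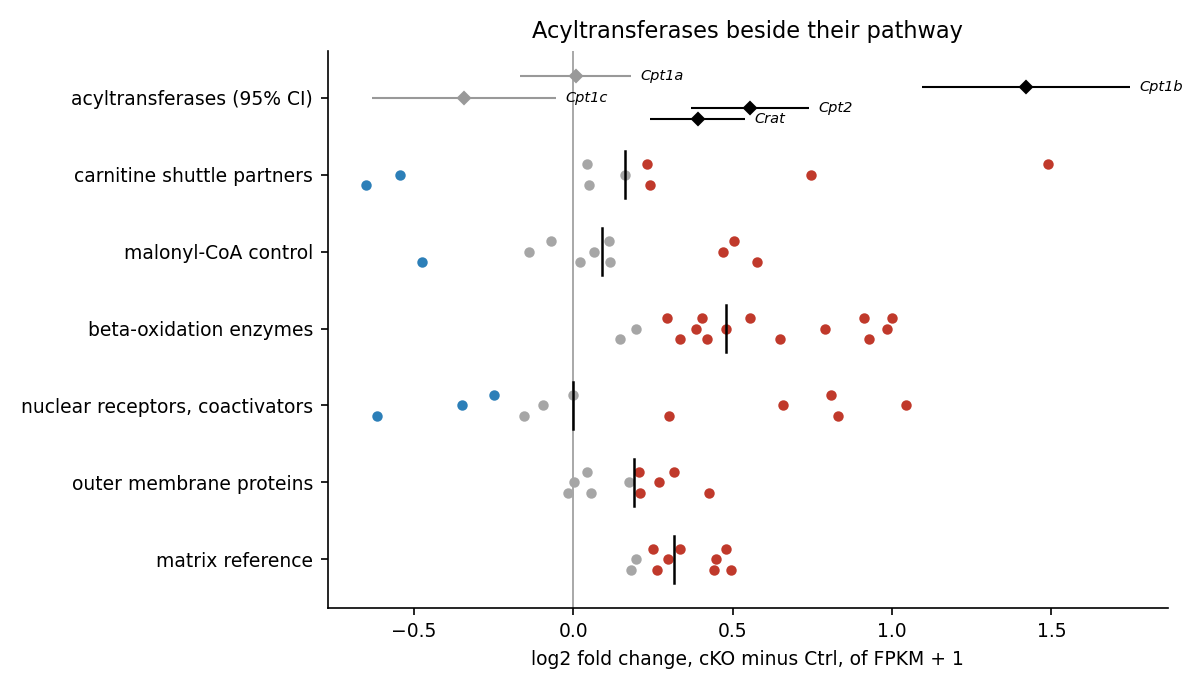
Log2 fold change (cKO minus Ctrl, of FPKM + 1) of the 5 acyltransferases with 95% intervals (black where called, gray where not) and of the tested genes of 6 related lists. Red points rose, blue points fell, gray points were not called and vertical bars are list medians: *Cpt1b* at 1.42 lies above every β-oxidation gene, and *Cpt1a* lies at 0.01.

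Sequence upstream of the start was at hand in RefSeq for 3 of the 5 members (*Cpt1a*, *Cpt1c* and *Cpt2*, GRCm38.p6), and *Cpt1b* and *Crat* had no entry. The 250 bases before the start of the RefSeq transcript are shown for *Cpt1a* (chr19:3323051-3323300, plus strand), which did not pass the test, and for *Cpt2* (chr4:107923590-107923839, minus strand), which rose, because the pair act in turn on the same acyl group. The matching GENCODE transcripts begin earlier, so that the last 16 bases of the *Cpt1a* window and the last 21 of the *Cpt2* window lie inside them, and the gene span given for *Cpt1a* also holds transcripts that begin further upstream. Capitals mark matches, on either strand, to the GC box GGGCGG, the CCAAT box and the nuclear receptor core AGGTCA.
Cpt1a: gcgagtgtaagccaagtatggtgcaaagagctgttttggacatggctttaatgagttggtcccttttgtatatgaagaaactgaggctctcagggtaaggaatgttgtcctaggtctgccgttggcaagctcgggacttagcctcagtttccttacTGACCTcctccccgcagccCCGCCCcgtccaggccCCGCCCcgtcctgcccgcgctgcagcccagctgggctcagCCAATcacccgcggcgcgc
Cpt2: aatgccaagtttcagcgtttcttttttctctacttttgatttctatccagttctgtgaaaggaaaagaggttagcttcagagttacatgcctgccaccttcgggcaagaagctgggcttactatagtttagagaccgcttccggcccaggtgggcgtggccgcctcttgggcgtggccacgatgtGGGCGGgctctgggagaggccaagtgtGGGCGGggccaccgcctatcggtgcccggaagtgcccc
Both windows held 2 GC boxes, a motif found in 32.7% of 32851 windows of this length. *Cpt1a* also held 1 CCAAT box, found in 33.8% of windows, and 1 AGGTCA, found in 14%, and *Cpt2* held neither. The window of *Cpt1c* (chr7:44974852-44975101, minus strand) held 1 of each of the 3. None of the 3 windows held a TATAAA (12.4% of windows), a TGACG (17.8%), its palindrome TGACGTCA (1.55%), a TCAAGGTCA (0.387%), or a pair of AGGTCA cores 1 base apart (0.0335%). The E box CANNTG, in 66.2% of windows, occurred once in *Cpt1a*, in 2 places in *Cpt2* and not in *Cpt1c*. These are matches of letters in 1 short window and show no binding.

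Because ingWAT holds several cell types, marker lists are given beside the isoforms. Brown and beige adipocyte markers went the way of *Cpt1b*, with 12 of 14 tested higher and 0 lower in cKO and a summed level of 1691 and 2013 FPKM in Ctrl and 5281 and 4481 FPKM in cKO. *Ucp1*, the uncoupling protein of thermogenic fat, read 334.8 and 446.36 FPKM in Ctrl and 1657.92 and 1420.2 FPKM in cKO, so *Cpt1b* per *Ucp1* was lower in cKO (0.0793 and 0.0810) than in Ctrl (0.116 and 0.119). General adipocyte markers read 33230 and 31720 FPKM in Ctrl and 25460 and 25560 FPKM in cKO, with 0 of 10 higher and 5 lower, and *Fabp4*, the most abundant, was not called (limma, adjusted p = 0.225). How far a different number of thermogenic adipocytes enters the rise of *Cpt1b*, *Cpt2* and *Crat* was not tested.

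Skeletal muscle, the tissue for which the CPT1B isoform is named, went the opposite way. All 12 tested muscle markers of 15 fell, from a summed 2513 and 1689 FPKM in Ctrl to 12.05 and 9.48 FPKM in cKO, led in abundance by *Acta1*, skeletal actin, at 493.11 and 321.28 FPKM against 2 and 1.31 FPKM. *Cpt1b* was therefore lower in the libraries that held muscle transcripts and higher in those nearly without them. Between the Ctrl libraries, replicate 1 had the higher muscle sum and the lower *Cpt1b*. It also had the lower sum of brown and beige adipocyte markers (1691 FPKM against 2013 FPKM in replicate 2), so the 2 differences cannot be told apart. How much of the *Cpt1b* of the Ctrl libraries came from muscle was not tested.

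For the brain isoform, neuron markers were low, with 7 of the 10 listed under 1 FPKM in every library, 3 tested and 0 called, and summed levels of 12.04 and 12.37 FPKM in Ctrl and 13.39 and 14.03 FPKM in cKO. *Syp*, synaptophysin, was the most abundant (mean 5.62 FPKM in Ctrl and 6.39 FPKM in cKO). Schwann cell markers fell in 7 of 9 and rose in 1, from 307.0 and 277.8 FPKM to 136.4 and 150.4 FPKM, with *Pmp22*, of peripheral myelin, the most abundant (log2 fold change -0.98; limma, adjusted p = 0.000491). *Cpt1c* was lower in the libraries with less Schwann cell transcript. By summed FPKM the same libraries were lower in skeletal muscle, general adipocyte and endothelial markers, and higher in brown and beige, neuron, B cell and T cell markers. Among these, 0 neuron markers were called, and 5 of 10 general adipocyte and 4 of 8 endothelial markers were not called. The part of any of these cells in the level of *Cpt1c* was not tested. For the liver isoform, 2 of 3 tested hepatocyte markers fell and 0 rose, from 1024 and 981.9 FPKM to 701.2 and 824.6 FPKM, nearly all of it *Cyp2e1*, which fat also expresses, and 3 of the 6 listed stayed under 1 FPKM.

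The remaining markers were less closely tied to an isoform. B cell markers rose in 7 of 8 (*Cd79a* the most abundant, log2 fold change 0.72; limma, adjusted p = 0.00165), with sums of 240.5 and 273.3 FPKM in Ctrl and 372.8 and 422.6 FPKM in cKO. T cell markers rose in 5 of 7 (*Cd3g*, 0.66; limma, adjusted p = 0.00688), with sums of 83.96 and 88.06 FPKM and of 115.8 and 152.4 FPKM. Of 8 macrophage markers 1 rose and 4 fell, with sums of 992.2 and 879.4 FPKM and of 928.3 and 954.7 FPKM (*Lyz2* not called; limma, adjusted p = 0.213), and of 8 endothelial markers 4 fell, with sums of 279.4 and 273.7 FPKM and of 233.2 and 246.9 FPKM (*Pecam1* not called; limma, adjusted p = 0.48). Epithelial markers, *Epcam* among them, summed to at most 1.0 FPKM in any library, and 0 could be tested. No listed marker of the 11 lists was at 0 in all 4 libraries.

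**Figure D4:**
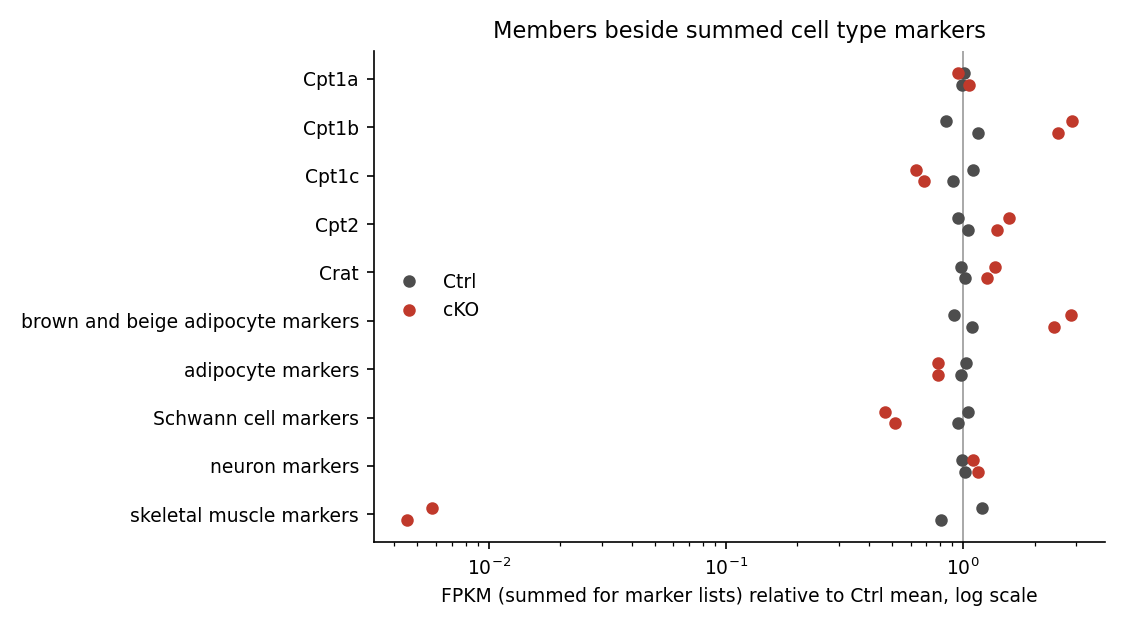
FPKM of each member, and summed FPKM of 5 marker lists, in each library relative to the mean of the Ctrl libraries, on a log axis. The cKO points of *Cpt1b* and of the brown and beige adipocyte markers lie to the right of the Ctrl points, and those of the skeletal muscle markers, at 12.05 and 9.48 summed FPKM, lie far to the left.

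The genes most like each member were found as the 3 with the smallest Euclidean distance between log2(FPKM + 1) profiles centered on their mean over the 4 libraries, a description of shape that rests on 4 points. For *Cpt1b* they were *Cox7a1* (distance 0.0765), a cytochrome oxidase subunit of muscle and brown fat, *Me3* (0.118), a mitochondrial malic enzyme, and *Fabp3* (0.121), a fatty acid binding protein of heart and brown fat. *Cox7a1* read 170.47 and 222.55 FPKM in Ctrl and 584.5 and 511.26 FPKM in cKO, and *Cpt1b* stood at 0.225 to 0.238 times its level in all 4 libraries. Both *Cox7a1* and *Fabp3* are on the list of brown and beige markers. For *Cpt2* the nearest were *Adcy10* (0.0141), the soluble adenylyl cyclase, *Pgf* (0.0173), placental growth factor, and *Ndufb8* (0.0174), the last a complex I subunit gene at 467.0 and 506.02 FPKM in Ctrl and 750.33 and 670.35 FPKM in cKO. For *Crat* they were *Mcee* (0.0112), of propionate breakdown, and the mitochondrial ribosomal protein genes *Mrps23* (0.0130) and *Mrpl4* (0.0170). For *Cpt1a* they were *Maf1* (0.0108), a repressor of RNA polymerase III, *Snw1* (0.0109), of splicing, and *Sgms1* (0.0126), a sphingomyelin synthase. For *Cpt1c* they were the small GTPase gene *Rras* (0.0137), *Arhgap32* (0.0223) and *Nucb2* (0.0229), the nesfatin precursor. Distances were not compared between members. The added 1 shrinks the changes of genes at low FPKM, so a small distance does not mean an equal change in FPKM itself. Low neighbors were *Me3* (0.81 and 1.59 FPKM in Ctrl, 5.29 and 4.02 FPKM in cKO) and *Pgf* (1.23 and 1.43 FPKM in Ctrl, 2.66 and 2.26 FPKM in cKO). *Adcy10* was low as well (2.12 and 2.43 FPKM in Ctrl, 4.03 and 3.5 FPKM in cKO), and so was *Cpt1c* itself.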

How the data were processed

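RNA of ingWAT from Ctrl and cKO mice (2 libraries each) was poly-A selected and read by the authors as single-end 50-base reads. The submitters' processing notes name HISAT2 2.0.4, RSEM 1.2.12 and mm10, without parameters. The deposited values are FPKM per gene and library, with no stated scaling between libraries and no columns of comparisons, and 0 per-sample columns were left unused. Depth was estimated from the steps between FPKM values of 319 genes with RNAs of at most 400 bases, of which 82.8% to 86.6% of the values used came out as whole reads within 0.1. Read counts for longer genes were therefore estimates, and no test on counts was run.

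Genes with a mean of at least 1 FPKM were compared on log2(FPKM + 1) with limma 3.58.1 (R 4.3.3, eBayes with trend, Benjamini-Hochberg), tested on simulated data first. Without stated separate mice, p-values measure the spread between these libraries, which may be technical. The log2(FPKM + 1) scale understates changes of low genes such as *Cpt1c*. The difference between isoforms was refitted after subtracting the log2 value of *Cpt1a* or *Cpt1b*, and shares were compared with exact permutation tests (scipy 1.17.1, Python 3.11.15). Gene positions and transcripts come from GENCODE M21 (GRCm38, the same assembly as mm10) by RefSeq accession, and promoters from RefSeq.

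The members and the gene lists were chosen with earlier results of these data known, so list counts are descriptions. Besides the members, the text names the largest called rise and fall of each of the 6 pathway lists, 8 genes of the shuttle and its regulation, the most abundant gene of each of the 11 marker lists, overlapping genes and the 3 nearest profiles. The calls, the members' fold changes, the list counts and the difference between *Cpt1b* and *Cpt1a* were recomputed after changing 1 choice at a time: the pseudocount (0.1), the filter (none, or 5 FPKM), the scaling (median-of-ratios or quantile), the eBayes trend (off), a replicate block, and the omission of each library.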

Additional observations from a re-analysis of the deposited data

How the results depend on the processing

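The rise of *Cpt1b*, its rise beyond *Cpt1a* and the higher *Cpt1b* share in cKO kept their direction under every alternative run (log2 fold change 1.2 to 1.64, difference 1.18 to 1.65, share 11 to 17.6 percentage points with a library left out). In most settings this direction was fixed beforehand. Both cKO libraries lay above both Ctrl libraries in each, so leaving out 1 library could not reverse it. Changing the filter, the trend or the replicate block leaves the fold change as it was. Without 1 library each, *Cpt2* lay between 0.47 and 0.64 and *Crat* between 0.33 and 0.45, and both lost the call only without Ctrl replicate 1 (0.49 and 0.36). *Cpt1a*, never called, lay between -0.0663 and 0.0819 and changed sign without Ctrl replicate 2 (-0.0074) and without cKO replicate 2. *Cpt1c* lay between -0.43 and -0.26 with a library left out and at -0.56 with a pseudocount of 0.1, was called only without the trend (-0.34; limma, adjusted p = 0.0374, against 0.0374 to 0.298 over all settings), and had no value at a mean of 5 FPKM. With no filter 1762 genes were called (667 higher, 1095 lower) and 22 list genes rose. With a library left out the calls ranged from 787 to 2340, list rises from 13 to 33 and list falls from 2 to 6. The cause of these moves was not tested. The fits with a library left out also rest on fewer libraries. Whether the replicate numbers pair the libraries is not stated. Deviations of the replicates numbered 1 correlated over genes at r = 0.0148, which cannot exclude a pairing. With the replicate block 3383 genes were called, against 3269. The block cannot change a fold change in this balanced design, so *Cpt1b* stayed at 1.42. The median of all genes moved between -0.03 and 0.02. With 2 libraries a genotype, an exact test cannot pass 0.333, and *Cpt1c* is limited by fewer than 100 reads per library.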
